A study of Mus musculus with 10 samples.

Results

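The genes of the natriuretic peptide system were described in the left ventricle (LV) of young mice under pressure overload. The 10 members were chosen by name among the 55401 genes of each deposited table. They were the peptide genes Nppa, Nppb and Nppc, the antisense transcript Gm13054, the convertases Corin and Furin, the receptors Npr1, Npr2 and Npr3, and the peptidase Mme. In neonatal ascending aorta constriction (nAAC) the aorta of wild-type newborn mice was narrowed surgically, and sham mice had surgery without constriction. All mice were raised with their mothers and, per the study's methods, came from C57BL/6 breeding. RNA of 5 nAAC and 5 sham LVs was sequenced at 4 weeks of age, with 1 library per mouse. The labels gave neither the sex nor the litter of a mouse, and a whole ventricle mixes all cell types of the tissue.

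Natriuretic peptides are cardiac hormones that are made as precursors, cut by convertases and released to lower blood pressure and volume. ANP (from Nppa) and BNP (from Nppb) act through Npr1, and CNP (from Nppc) through Npr2, both of which are receptors that make cyclic GMP. Npr3 lacks this enzyme activity and clears the peptides, and the peptidase neprilysin, encoded by Mme, degrades them. Nppa is active in the fetal ventricle, becomes largely atrial after birth and returns in stressed ventricles.

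Both cardiac peptide genes rose in nAAC mice, Nppa by a log2 fold change (FC) of 6.07 and Nppb by 5.12, whereas the genes for processing, reception and degradation differed much less or in the other direction. Corin fell by 0.54 on the log2 scale, Npr3 rose by 0.50, and Npr1, Npr2 and Furin did not pass the test. Values were FPKM, fragments per kilobase of transcript scaled to the sequenced total, which allow levels of different genes to be compared. The 11867 genes with a mean of at least 1 FPKM were tested with limma on log2(FPKM + 1), and a gene was a DEG where the adjusted p was below 0.05 and the log2 FC beyond 1 in either direction. Of the 8 members tested, 7 averaged 1 FPKM or more in both groups, whereas Gm13054 passed this minimum only through the nAAC mice, in which it was high, and is left out of the counts of higher members. Among the 7, Nppa and Nppb were higher DEGs, against 5.01% of all genes tested. No member was a lower DEG in limma, where the share of all genes was 0.893%, and Corin alone was lower at an unadjusted p below 0.05. By an adjusted p below 0.05 alone, 3 of the 7 rose, against 27.1% of all genes, and 1 fell, against 4.60%. The groups did not overlap in 4 of the 7, against 22.3% of all genes.

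**Figure D1:**
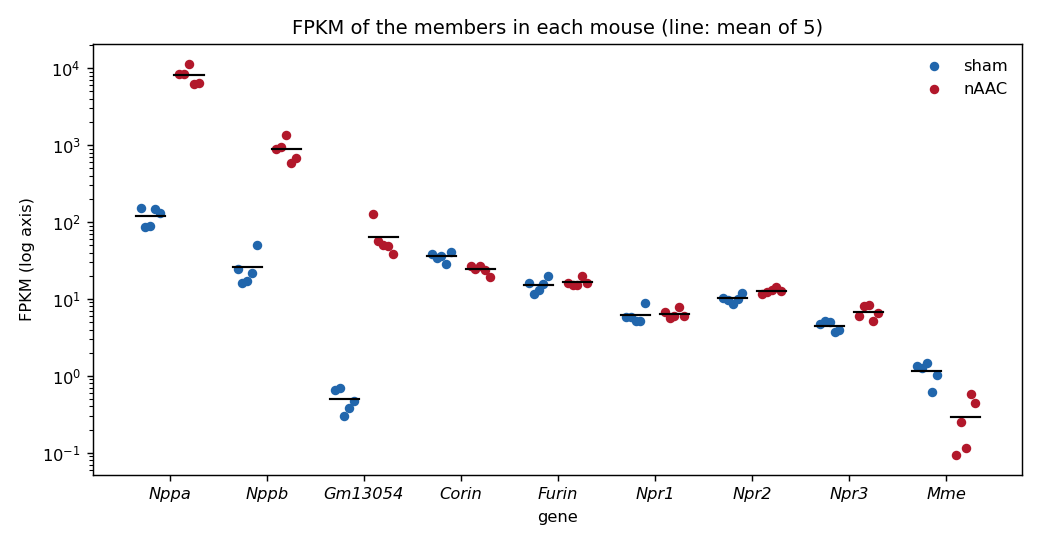
FPKM on a log axis of 9 members in each of the 5 sham (blue) and 5 nAAC (red) mice, with the mean of each group as a line. Nppc is left out because it was listed at 0 in 7 of 10 mice. The groups are far apart in Nppa, Nppb and Gm13054, close in Furin, Npr1 and Npr2, and Mme is lower in all nAAC mice.

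The groups also differed in scale. Over all genes tested the median log2 FC was 0.22, and 595 of the 701 DEGs were higher in nAAC mice, against 371 of 578 after median-ratio scaling and 377 of 577 after upper-quartile scaling. Mitochondrial genes took 32.8% to 39.9% of the TPM (length-normalized transcript abundance, with the same total in every library) in nAAC mice and 33.7% to 49.8% in sham mice. Sham replicate 4 had the lowest share among sham mice, and it also had the lowest sham values of Corin, Npr3 and Mme. Xist, an RNA of the inactive X chromosome in females, lay between 14.8 and 17.9 FPKM in 4 nAAC mice, at 10.6 and 3.70 in sham replicates 5 and 4, and below 0.03 in the other mice. Sex and operation could thus not be fully told apart. Members whose call changed with Xist as a covariate are named below. So are such genes of the lists for cyclic GMP signaling, convertases and peptidases, and transcription factors. The calls of marker genes and of neighbors of Nppa and Nppb are given without this covariate only.

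Nppa (ENSMUSG00000041616; mm10 chromosome 4, 148000722 to 148002079, plus strand) has 3 exons. Its 5′ flank is shown because the genes for factors that bind this region were also measured. The 250 bases before the start given by RefSeq (GRCm38.p6, plus strand, chr4:148000472-148000721) hold the motif of GATA factors, GATAA, 121 bases before the start, and once more on the minus strand, 75 bases before it. Both are in capitals.

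Nppa: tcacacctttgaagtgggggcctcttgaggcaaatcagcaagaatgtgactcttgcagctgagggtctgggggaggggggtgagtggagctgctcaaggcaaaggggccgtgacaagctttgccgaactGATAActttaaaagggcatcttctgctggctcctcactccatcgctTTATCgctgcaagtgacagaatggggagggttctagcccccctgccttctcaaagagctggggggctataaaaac

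In nAAC replicates 1 to 5 the Nppa level was 8405, 8528, 11503, 6293 and 6356 FPKM. In sham replicates 1 to 5 it was 154.2, 86.5, 88.2, 145.8 and 132.3 FPKM. The lowest nAAC mouse thus lay far above the highest sham mouse, and the spread within each group was small beside this distance. The means were 8217 ± 2127 and 121.4 ± 32.1 FPKM (SD, n = 5 each), a ratio of 67.7. The log2 FC of 6.07 (standard error 0.22, 95% interval 5.59 to 6.56, limma adjusted p = 3.58e-09) ranked 2 among all genes tested. Nppa made up 1.05% to 1.88% of all TPM in nAAC mice, where it was among the 19 most abundant genes of every library, and 0.0119% to 0.0229% in sham mice, where it ranked between 253 and 400. In bulk tissue, fewer cells of a type and less RNA per cell cannot be told apart. Neither scaling, the unit, any covariate nor the removal of a mouse moved the log2 FC of Nppa outside 5.80 to 6.25.

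Nppb (ENSMUSG00000029019; chromosome 4, 147985788 to 147987205, plus strand) also has 3 exons and ends 13516 bases before the start of Nppa. A piece of 30 bases (GRCm38.p6, plus strand, chr4:147985793-147985822), 107 to 78 bases before the RefSeq start, is shown because it holds GATAA at 94 and 83 bases before that start, next to the M-CAT motif of TEAD factors, CATTCC, on the minus strand at 105. All of them are in capitals. In GENCODE M21, Nppb starts 112 bases upstream of the RefSeq start, so this piece lies within its first exon there.

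Nppb: caGGAATGcagctGATAAatcagaGATAAc

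The Nppb level was 895.4, 941.0, 1349, 593.2 and 688.1 FPKM in nAAC replicates 1 to 5. In sham replicates 1 to 5 it was 24.2, 16.0, 17.3, 21.5 and 50.3 FPKM. All nAAC mice were above all sham mice, and sham replicate 5 stood above the other sham mice. The means were 893.3 ± 292.4 and 25.9 ± 14.0 FPKM (SD, n = 5 each). This gave a log2 FC of 5.12 with a 95% interval of 4.49 to 5.76 (limma adjusted p = 1.31e-07, standard error 0.29). Without sham replicate 5 it was 5.39. Nppb was the 50th to 80th most abundant gene of the nAAC libraries and the 858th to 2134th of the sham libraries.

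Nppb rose less than Nppa. Within a library, Nppb was 10.7%, 11.0%, 11.7%, 9.43% and 10.8% of the Nppa level in nAAC replicates 1 to 5. In sham replicates 1 to 5 it was 15.7%, 18.5%, 19.6%, 14.7% and 38.0%. The nAAC mice lay within a narrow range below every sham mouse. The log2 ratio of Nppb to Nppa was lower by 0.90 in nAAC mice. Permuting the labels of the 5 and 5 mice in an exact two-sided test gave p = 0.0079, the smallest possible, or 0.0127 after adjustment over the 8 ratios compared. Such a ratio does not depend on scaling between libraries. Without sham replicate 5 the difference was -0.67.

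The flanks were searched on both strands for 6 motifs, in windows of the 250 bases before a RefSeq start. Of the members, 9 had at least 1 window. GATAA was found in those of Nppa and Nppb and of no other member, and in 22.6% of all 32851 windows. CATTCC occurred in windows of Nppb and Mme and in 12.6% of all windows. A TATA box (TATAAA) was found in windows of Nppa, Nppb, Nppc and Furin and in 12.4% of all, and the NKE motif of Nkx2-5 (AAGTG) in windows of Nppa and Furin and in 40.7% of all. The AP-1 motif (TGANTCA) was found only in a window of Mme, against 6.75% of all windows. An exact CArG box, the motif of Srf (CC, 6 bases of A or T, GG), was in no window of a member, against 1.47%. Forms of a motif with a mismatch were not searched, so the windows may hold such sites. The capitals of both printed sequences do not overlap with a match of another motif.

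Gm13054 (ENSMUSG00000086806; chromosome 4, 148001091 to 148004014, minus strand) is annotated as an antisense transcript that runs against Nppa. Its level was 125.9, 56.3, 50.0, 49.3 and 39.0 FPKM in nAAC replicates 1 to 5. Sham replicates 1 to 5 had 0.658, 0.702, 0.305, 0.386 and 0.469 FPKM. It thus passed from below 1 FPKM in every sham mouse to the third level among the members in every nAAC mouse, with a log2 FC of 5.31 (limma adjusted p = 2.54e-08, standard error 0.25). It entered the test through its nAAC values alone, since all sham values were below the minimum, so this call is a description. In addition, 532 of its 820 exon bases (64.9%) are shared with exons of Nppa. The sources used here do not state whether strand was used in counting, and without strand the reads of these genes cannot be told apart. Gm13054 was 0.43% to 1.5% of the Nppa level in nAAC mice and 0.265% to 0.811% in sham mice. The log2 ratio of Nppa to Gm13054 was lower by 0.84 in nAAC mice with overlapping groups (exact permutation p = 0.0873, adjusted over 8 ratios p = 0.0998). This difference was -1.09 (adjusted p = 0.0212) without sham replicate 2, and it was 0.76 when 1 was added to each FPKM.

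The neighbors of both peptide genes differed far less. Of 6 other tested genes described here that lie at least in part within 100 kb of Nppa or Nppb, 4 rose by an adjusted p below 0.05. Over all genes tested, 27.1% rose by this rule and the median log2 FC was 0.22. Plod1, a collagen lysyl hydroxylase, had a log2 FC of 0.65 (limma adjusted p = 0.00108, standard error 0.12) and the chloride transporter gene Clcn6, which lies beyond Gm13054, one of 0.45 (limma adjusted p = 0.00507, standard error 0.10). In both, all nAAC mice were above all sham mice, and the groups did not overlap in 22.3% of all genes tested. 2510039O18Rik and Agtrap had log2 FCs of 0.48 and 0.37, with overlapping groups. Mfn2 and the pseudogene Chchd2-ps, at 0.16 and 0.02, did not pass the test. Draxin, Gm13156, Gm13201 and Gm13207 were below 0.1 FPKM in every mouse and were not tested.

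**Figure D2:**
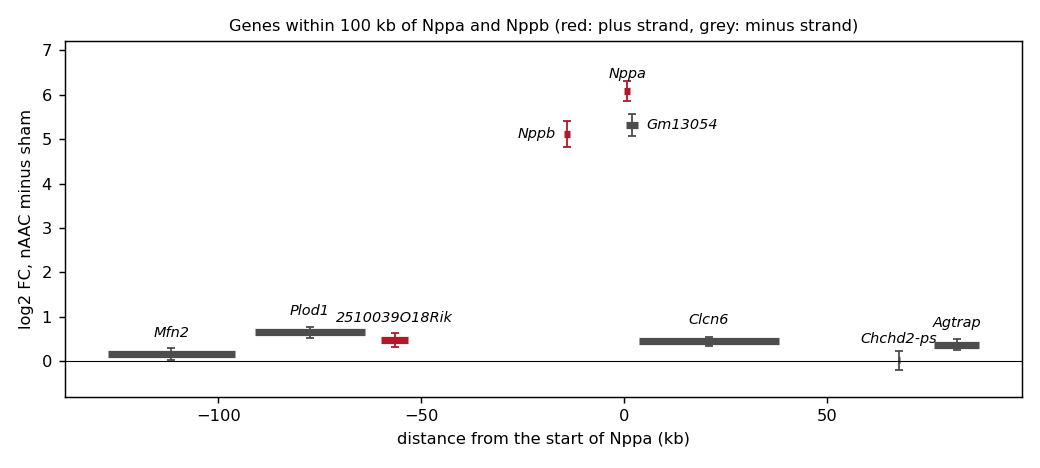
The log2 FC (nAAC minus sham, vertical axis) of Nppa, Nppb, Gm13054 and 6 other tested genes within 100 kb of them, each drawn as a bar over its span, in kb from the start of Nppa (horizontal axis), with its standard error. Nppa, Nppb and Gm13054 lie between 5.12 and 6.07, and the other genes drawn lie between 0.02 and 0.65.

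Nppc (ENSMUSG00000026241; chromosome 1, 86666291 to 86670571) was nearly absent. It was listed at 0 in all mice except nAAC replicate 5 at 0.228 FPKM, sham replicate 2 at 0.0397 FPKM and sham replicate 4 at 0.0881 FPKM. These levels are too low for a comparison of the groups, and no fold is given.

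Corin is the serine protease of the cardiomyocyte surface that cuts pro-ANP. Corin (ENSMUSG00000005220; chromosome 5, 72300025 to 72504473, minus strand) was at 27.0, 24.5, 26.6, 23.5 and 19.4 FPKM in nAAC replicates 1 to 5. Sham replicates 1 to 5 had 38.9, 34.4, 35.7, 28.3 and 41.1 FPKM. Every nAAC mouse was below every sham mouse, opposite to the substrate gene Nppa, although the closest mice of the 2 groups were little more than 1 FPKM apart. The means were 24.2 ± 3.03 and 35.7 ± 4.90 FPKM (SD, n = 5 each). This gave a log2 FC of -0.54 with a 95% interval of -0.83 to -0.25 (limma adjusted p = 0.00861, standard error 0.13). Corin fell further after median-ratio scaling, with a log2 FC of -0.81, and without sham replicate 4, with -0.62. It did not pass the threshold in TPM, where the log2 FC was -0.38 (limma adjusted p = 0.0601), or with Xist as a covariate, at -0.53 (limma adjusted p = 0.0513). The log2 ratio of Nppa to Corin was higher by 6.64 in nAAC mice (exact permutation p = 0.0079, adjusted p = 0.0127).

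Furin is a widely expressed protease of the secretory pathway that takes part in cutting pro-BNP. Furin (ENSMUSG00000030530; chromosome 7, 80388585 to 80405436) was at 16.2, 15.1, 15.4, 19.9 and 16.3 FPKM in nAAC replicates 1 to 5. In sham replicates 1 to 5 it was at 16.0, 11.5, 13.1, 15.9 and 20.2 FPKM. The groups overlapped, with a log2 FC of 0.12 (95% interval -0.19 to 0.44, limma adjusted p = 0.535), and the sign turned after scaling. The convertases therefore shifted against each other. Corin was 1.18 to 1.73 times the Furin level in nAAC mice and 1.78 to 3.01 times in sham mice, without overlap. The log2 ratio was lower by 0.69 (exact permutation p = 0.0079, adjusted p = 0.0127), and it lay between -0.79 and -0.60 when each mouse was left out in turn.

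**Figure D3:**
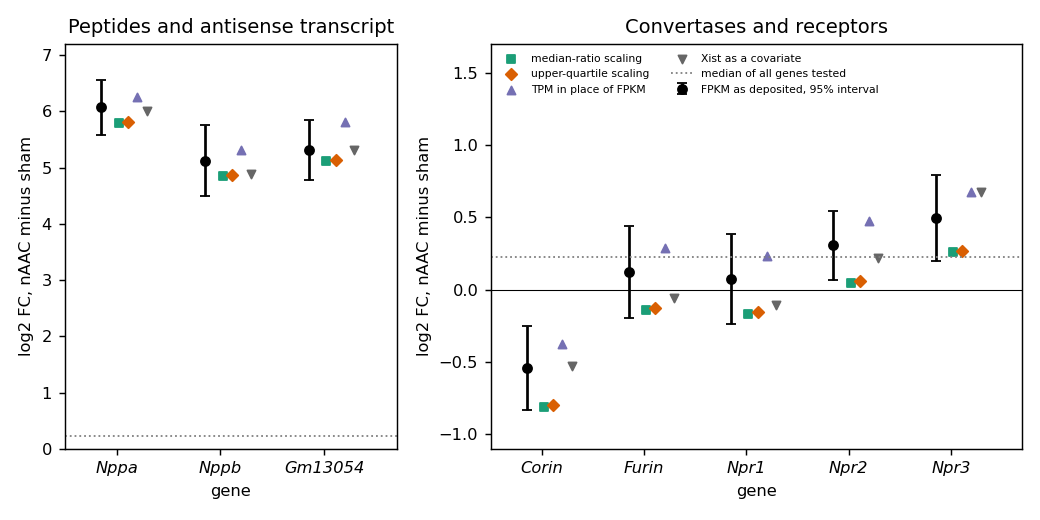
The log2 FC (nAAC minus sham) of the 8 tested members, with its 95% interval (black) and its values after other scalings, in TPM and with Xist as a covariate, on separate vertical scales for each panel. The dotted line marks the median of all genes, 0.22. Nppa, Nppb and Gm13054 stay near 5 to 6, and Furin and Npr1 lie on both sides of 0.

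Npr1 is the receptor of ANP and BNP and the one member that both induced peptides activate. Npr1 (ENSMUSG00000027931; chromosome 3, 90450591 to 90465866) was at 6.70, 5.62, 6.05, 7.88 and 6.05 FPKM in nAAC replicates 1 to 5 and at 5.77, 5.80, 5.11, 5.22 and 8.90 FPKM in sham replicates 1 to 5. Sham replicate 5 was the highest mouse of both groups. The log2 FC was 0.08 (95% interval -0.24 to 0.39, limma adjusted p = 0.71), so a change of the size seen for the peptides lies outside the interval, and the sign turned after scaling.

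Npr2 is the receptor of CNP. Npr2 (ENSMUSG00000028469; chromosome 4, 43631935 to 43651244) was at 11.6, 12.3, 13.2, 14.2 and 12.6 FPKM in nAAC replicates 1 to 5 and at 10.4, 9.82, 8.57, 10.1 and 12.0 FPKM in sham replicates 1 to 5. Sham replicate 5 alone reached into the nAAC range. The log2 FC was 0.31 (standard error 0.11, 95% interval 0.07 to 0.55), and its adjusted p of 0.0506 from limma was just above the threshold. It fell below the threshold without sham replicate 5 (log2 FC 0.36, limma adjusted p = 0.0209), without sham replicate 4 (0.0488), without a filter on low values (0.0467) and in TPM (log2 FC 0.48, limma adjusted p = 0.0159). After median-ratio scaling the log2 FC was 0.05. The antisense gene Gm12473 shares 266 exon bases with Npr2 and was at 2.95 ± 1.22 and 1.88 ± 2.04 FPKM in nAAC and sham mice (SD, n = 5 each).

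Npr3 is the clearance receptor. Npr3 (ENSMUSG00000022206; chromosome 15, 11839896 to 11907287) was at 5.93, 8.12, 8.4, 5.24 and 6.5 FPKM in nAAC replicates 1 to 5. Sham replicates 1 to 5 were at 4.65, 5.22, 5.0, 3.71 and 3.99 FPKM. All nAAC mice were above all sham mice, but the lowest nAAC and the highest sham mouse nearly touched. The log2 FC was 0.50 (standard error 0.14, 95% interval 0.20 to 0.80, limma adjusted p = 0.0154). It was 0.26 after median-ratio scaling (limma adjusted p = 0.282) and 0.27 after upper-quartile scaling (limma adjusted p = 0.273), so the rise did not pass once the general shift of 0.22 was scaled out. With Xist as a covariate it was 0.67 (limma adjusted p = 0.00844). Gm5144, annotated on the opposite strand with 321 shared exon bases, was at 0.514 ± 0.272 and 0.0854 ± 0.0484 FPKM in nAAC and sham mice (SD, n = 5 each).

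The balance of the receptors was not shown to differ. The log2 ratio of Npr3 to Npr1 was 0.07 ± 0.47 in nAAC mice and -0.43 ± 0.44 in sham mice (SD, n = 5 each), with an exact permutation p of 0.127, unadjusted and adjusted alike. For Npr2 to Npr1 the difference was 0.24 (exact permutation p = 0.0556, adjusted over 8 ratios p = 0.0741), and it passed without nAAC replicate 1 or without sham replicate 4 (adjusted p = 0.0423 in both).

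Mme encodes neprilysin, a membrane peptidase that degrades natriuretic peptides. Mme (ENSMUSG00000027820; chromosome 3, 63241537 to 63386030) was at 0.0930, 0.253, 0.116, 0.576 and 0.440 FPKM in nAAC replicates 1 to 5. Sham replicates 1 to 5 had 1.36, 1.27, 1.47, 0.614 and 1.03 FPKM. Every nAAC mouse was below every sham mouse, and sham replicate 4 came closest to the nAAC range. The means were 0.296 ± 0.209 and 1.15 ± 0.339 FPKM (SD, n = 5 each), a ratio of 3.88, and the exact permutation p was 0.0079. These levels are low, with a mean coverage of 0.260 to 1.12 reads per base in nAAC mice and 1.61 to 3.51 in sham mice. The mean of 0.722 FPKM was below the minimum of 1 FPKM, so Mme was not among the genes tested. Without this minimum the log2 FC was -0.73 (95% interval -1.05 to -0.41, limma adjusted p = 0.00867) on the log2(FPKM + 1) scale, which understates the change of a low gene. Relative to Npr3, the other route of removal, Mme was at 0.0138 to 0.110 in nAAC mice and at 0.166 to 0.293 in sham mice. The log2 ratio was lower by 2.82 (exact permutation p = 0.0079, adjusted p = 0.0127), or by 1.23 when 1 was added to each FPKM.

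**Figure D4:**
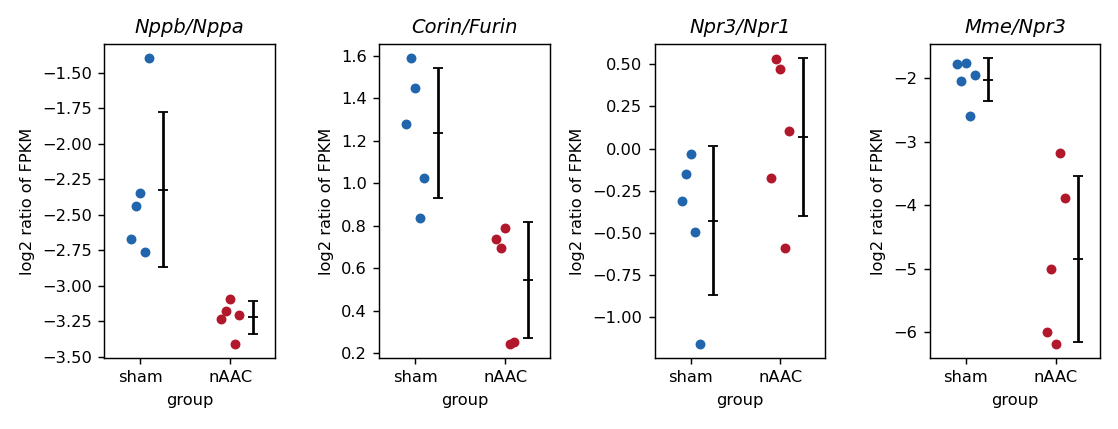
Log2 ratios of 2 members within each library for 5 sham (blue) and 5 nAAC (red) mice, with the mean and SD of each group in black and a vertical scale for each panel. The groups do not overlap in Nppb/Nppa, Corin/Furin and Mme/Npr3, and they overlap in Npr3/Npr1.

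The order of the levels also changed. In sham mice it was Nppa, Corin, Nppb, Furin, Npr2, Npr1, Npr3, Mme, Gm13054 and Nppc by mean FPKM. Corin exceeded Nppb in 4 of 5 sham mice, and these neighbors overlapped in range, as did each pair of neighbors from Nppb to Npr3, and Mme with Gm13054. In nAAC mice the order was Nppa, Nppb, Gm13054, Corin, Furin, Npr2, Npr3, Npr1, Mme and Nppc. Npr3 exceeded Npr1 in 3 of 5 nAAC mice, and their ranges overlapped, as did those of Corin with Furin and of Mme with Nppc. Nppb was 1.32 to 2.49 times the Furin level in sham mice and 29.9 to 87.8 times in nAAC mice, a difference in log2 ratio of 5.05 (exact permutation p = 0.0079, adjusted p = 0.0127).

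Nppa is also an atrial transcript, and atrial genes were measured beside it. The atrial myosin light chain Myl7 was at 1.10, 54.0, 79.8, 11.9 and 0.654 FPKM in nAAC replicates 1 to 5. It was at 22.4, 3.89, 3.65, 1.16 and 7.33 FPKM in sham replicates 1 to 5. Atrial levels thus varied between mice of each group. In nAAC replicates 1 and 5, with the lowest Myl7 of all mice, Nppa was at 8405 and 6356 FPKM. In nAAC replicates 3 and 2, with the highest Myl7 of all mice, Nppa was also highest, at 11503 and 8528 FPKM. Of the 5 atrial markers tested, Kcnj3, a channel gene, was a lower DEG at a log2 FC of -2.07, while Myl7, Myl4, Sln and Mybphl did not pass. Bmp10 was at 0 in all mice except sham replicate 1, at 0.0106 FPKM. The sum of the 6 markers was 3.84 to 235.1 FPKM in nAAC mice and 12.3 to 56.6 FPKM in sham mice. With Myl7 as a covariate the log2 FC was 5.99 for Nppa and 5.02 for Nppb. The part of atrial tissue in the levels of Nppa and Nppb was not tested.

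**Figure D5:**
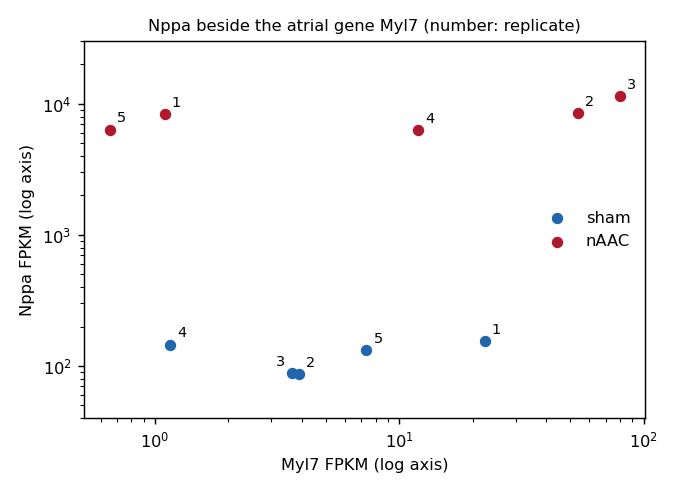
Nppa against the atrial gene Myl7 in FPKM, both on log axes, for 5 sham (blue) and 5 nAAC (red) mice, with the replicate number beside each point. The nAAC mice lie between 6293 and 11503 FPKM of Nppa and between 0.654 and 79.8 FPKM of Myl7.

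Markers of other cell types were measured as well, although in bulk tissue they do not tell the number of cells from the RNA per cell. Summed fibroblast markers were at 417.7 to 683.0 FPKM in nAAC mice and at 364.6 to 384.2 FPKM in sham mice, without overlap. Dcn held most of this sum, with means of 420.8 FPKM in nAAC and 295.8 FPKM in sham mice. Of the 6 fibroblast markers, 4 rose (Col1a1, Tcf21, Lum and Dcn), and Pdgfra and Dpt did not pass. Over all genes tested, 27.1% rose, 4.60% fell and 22.3% had groups without overlap. Of 9 cardiomyocyte markers, Actn2 and Actc1 rose, Tnni3 fell and 6 did not pass. Of 6 mural markers, 3 rose (Myh11, Notch3 and Pdgfrb), and the endothelial marker Kdr and the endocardial marker Nfatc1 rose among 6 and 3 tested. No leukocyte marker and no erythroid marker of 5 each passed in limma, and at an unadjusted p below 0.05 there were 1 and 0. The cardiomyocyte genes Myh6, Tnnt2 and Myl2 were at 1312 FPKM or more in every mouse. The part of these shifts in the levels of Corin, Npr3 and Mme was not tested.

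Among the genes that carry the signal onward, cyclic GMP is made by receptors or by soluble guanylyl cyclase, acts on protein kinase G, and is removed by phosphodiesterases and transporters. Of 14 genes of this list that were tested, 6 rose, against 27.1% of all genes, and 2 fell, against 4.60%, by an adjusted p below 0.05, with a median log2 FC of 0.27 against 0.22 for all genes. Rgs2, a regulator of G protein signaling and a target of protein kinase G, was the only DEG of this list. Rgs2 was at 3.59, 3.55, 3.54, 4.40 and 4.02 FPKM in nAAC replicates 1 to 5 and at 8.14, 10.1, 17.3, 23.4 and 12.5 FPKM in sham replicates 1 to 5. It was narrow and low in nAAC mice and wide in sham mice, with a log2 FC of -1.58 (limma adjusted p = 1.61e-04, standard error 0.22). Prkg1, which encodes protein kinase G, rose by 0.75 (limma adjusted p = 0.00109, standard error 0.14) without overlap of the groups, and Vasp, a substrate of this kinase that binds actin, rose by 0.75 (limma adjusted p = 0.0144, standard error 0.21) with overlap. Pde1a, Abcc5, Abcc4 and Pde9a rose too, and Pde2a fell. The subunits of soluble guanylyl cyclase, Gucy1a1 and Gucy1b1, at log2 FCs of 0.29 and 0.17, did not pass. With Xist as a covariate, Prkg1, Rgs2, Pde1a and Abcc5 passed, and Vasp, Pde2a, Pde9a and Abcc4 did not.

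Of 11 other convertases, peptidases and the Npr3 ligand gene Ostn, 4 could be tested. By an adjusted p below 0.05, 0 rose and 1 fell, against 27.1% and 4.60% of all genes. Ide, an insulin-degrading protease that also cuts natriuretic peptides, fell by 0.42 on the log2 scale (limma adjusted p = 0.0414, standard error 0.14) with overlapping groups, and it did not pass with Xist as a covariate (limma adjusted p = 0.197). Ostn and Mep1a were listed at 0 in every mouse. The proprotein convertases Pcsk6 and Pcsk7, at log2 FCs of 0.43 and 0.15, and Ece1, at 0.34, did not pass.

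A chosen list held 15 transcription factors among those known to act on Nppa and Nppb, and all 15 were tested. Of these, 3 rose, 2 fell and 10 did not pass, with a median log2 FC of 0.26. Of all genes tested, 27.1% rose and 4.60% fell. The share that rose was thus not above the background, and the share that fell, 2 of 15, was above it. This difference was not tested. Srf, the serum response factor, was at 31.4 to 44.9 FPKM in nAAC mice and at 12.8 to 22.4 FPKM in sham mice, a log2 FC of 1.0 (limma adjusted p = 8.00e-04, standard error 0.17) that lay at the DEG threshold. It was 0.73 after median-ratio scaling and 0.79 with Xist as a covariate. Tbx20, a cardiac T-box factor, rose by 0.95 (limma adjusted p = 0.00145, standard error 0.18), and Gata4, which binds the GATA motif, by 0.72 (limma adjusted p = 0.00447, standard error 0.16), both without overlap. Mef2a fell by 0.60 and Tbx5 by 0.50. With Xist as a covariate, Srf and Tbx20 passed an adjusted p of 0.05, and Gata4, Mef2a and Tbx5 did not. Gata6 and Nkx2-5, at -0.08 and 0.24, did not pass. Tead1, whose protein binds the M-CAT motif, had a log2 FC of 0.93 (limma adjusted p = 0.0973) with sham replicate 4 at 1.81 FPKM, far below all other mice, and no nAAC mouse below 19.7 FPKM.

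The genes most like Nppb and Npr3 over the 10 libraries were named by the highest Pearson r of log2(FPKM + 1). For Nppb they were Synpo2l (r = 0.997), Hectd2os (0.994) and Cnksr1 (0.994), with 121.8, 24.4 and 12.1 FPKM in nAAC mice. For Npr3 they were Slc38a4 (0.934), Ror1 (0.927) and Adamts8 (0.914). Nppa and Nppb themselves had an r of 0.991. The libraries form 2 groups, so each r reflects the difference between the groups more than variation among mice of a group.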

How the data were processed

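RNA of LV tissue was extracted with Trizol, and libraries were made with the NEBNext Ultra RNA kit. The authors deposited 1 table per mouse with a coverage signal, FPKM and TPM of each gene, and the submitters' processing notes name the build mm10. The aligner, the assembler and the use of strand are not given in the sources used here. Values of 12 to 21 gene IDs per table that stood on several lines were summed. All 10 members had the same span in GENCODE M21.

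FPKM, which the authors had normalized by length and depth, was the main unit. Read counts are not known, so no counting interval is given, and precision rests on 5 mice per group (median coefficient of variation of a gene 15.1% in nAAC and 22.4% in sham mice). The 11867 genes that averaged 1 FPKM or more were compared by limma 3.58.1 (R 4.3.3) with a trended variance, after log2 transformation of FPKM + 1, and p values were adjusted by Benjamini-Hochberg over all of them. The test was checked on simulated data. Exact two-sided permutation tests (scipy 1.17.1) compared 5 with 5 mice for each member and for 8 log2 ratios without a pseudocount, where the smallest possible p is 0.0079.

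The text names the members, the called genes of 3 lists (cyclic GMP signaling, convertases and peptidases, transcription factors) with the 3 largest changes of each, genes within 100 kb of Nppa or Nppb, genes on the opposite strand of a member, marker genes, and the 3 genes most like Nppb and Npr3. The genes most like Nppa and 1 neighbor of the peptide genes are not reported here. Other genes of these lists were named after their values were seen. The members and lists were chosen with earlier results of these data known. As alternatives, libraries were rescaled by median ratios or upper quartiles, and the other settings were TPM (as deposited), no filter, a pseudocount of 0.1, Xist or Myl7 as a covariate, the replicate number as a block, and leaving out each mouse. Whether mice of one group share a litter is not given.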

Additional observations from a re-analysis of the deposited data

Results flagged for a closer look

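In 34 groups of 5 values, the highest and the lowest mouse were compared with their nearest neighbor. Member levels were taken as log2(FPKM + 1). The measure was Dixon's ratio of the gap to the range, whose 95% critical value is 0.71. Chance gives about 1.7 such groups among 34. There were 3. In Furin, nAAC replicate 4 was the highest of its group, at 19.9 FPKM against 15.1 to 16.3 FPKM. Its ratio was 0.728 on the log2 scale. In Npr1, sham replicate 5 was the highest, at 8.90 FPKM against 5.11 to 5.80 FPKM, with a ratio of 0.778 on the log2 scale. In the log2 ratio of Nppb to Furin, sham replicate 5 was the highest, at 1.32 against 0.40 to 0.59, with a ratio of 0.791. Sham replicate 5 was thus the highest sham mouse in Nppb, Furin, Npr1, Npr2 and Corin.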

How the results depend on the processing

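Nppa, Nppb and Gm13054 kept their direction and remained DEGs in all 18 alternatives, with ranges of log2 FC of 5.80 to 6.25, 4.85 to 5.39 and 5.04 to 6.65. For Gm13054, which entered the test through its nAAC values alone, these calls are a description. Furin and Npr1, which were not called, turned sign to -0.14 and -0.17 after median-ratio scaling, -0.13 and -0.15 after upper-quartile scaling, and -0.058 and -0.10 with Xist as a covariate. The log2 ratio of Nppa to Gm13054 turned to 0.76 with a pseudocount of 1 and lay between -1.09 and -0.58 without each mouse in turn. The ratio of Npr2 to Npr1 then lay between 0.17 and 0.30. DEGs numbered 701, 1075 in TPM (979 higher), 1121 with a pseudocount of 0.1 (952 higher) and 662 to 784 without each mouse. The 3 pathway lists held 14, 4 and 15 tested genes. Over all genes tested, 5.01% were higher DEGs and 0.893% lower DEGs. DEGs of the lists numbered 2 (Srf and Rgs2), and 1 after median-ratio or upper-quartile scaling or with Myl7 as a covariate. They numbered 4 in TPM or with a pseudocount of 0.1, where DEGs over all genes rose as well, and 1 to 3 without each mouse. Srf was the gene lost in the cases with 1, among them without nAAC replicate 3 or sham replicate 3. With Xist as a covariate there were 2, Rgs2 and Tbx20, and Srf was not a DEG. By an adjusted p below 0.05 alone, 27.1% of all genes rose and 4.60% fell. Genes of the lists that passed this rule numbered 14, and 6 with Xist as a covariate. The cause of these changes was not tested. No pairing of the mice by replicate number was seen in their values, which cannot tell whether such mice shared a litter or handling. The correlation of deviations of mice with the same number was between -0.32 and 0.19, and no mouse was most like its own number. With the replicate block there were 704 DEGs, of which 700 were among the 701, and no member changed its call. Read depth is not known, which limits what can be said of Mme and Nppc.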
